A study of Homo sapiens with 30 samples.

Results

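The clustered protocadherins are neighbouring genes on chromosome 5 that encode cadherin-like adhesion proteins of neurons. They lie in an alpha, a beta and a gamma cluster. In the alpha and gamma clusters each gene has its own promoter and variable first exon, which is spliced to constant exons shared by the cluster, whereas beta genes are single-exon genes. A neuron uses a changing choice of these promoters, in which DNA methylation, CTCF and cohesin take part, and the C-type genes at the ends of the alpha and gamma clusters are used more evenly. Trimethylation of lysine 27 on histone H3 (H3K27me3) marks chromatin repressed by Polycomb, and acetylation of the same residue (H3K27ac) marks active promoters and enhancers.

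The members described here were all peaks that overlapped chr5:140160001-140895000 on hg19, a locus of 735 kb. The alpha window was chr5:140160001-140395000, the beta window chr5:140425001-140630000 and the gamma window chr5:140705001-140895000. In the 36 deposited lists, 98 peaks met this rule of 745005 on chromosomes 1 to 22 and X. The caller SEACR gave 81 of them in 30 lists and MACS2 gave 17 in 6 lists. The RefSeq gene table used here is on GRCh38.p14, so it gave names and gene order only, and no peak was assigned to a gene. It lists 53 protein-coding genes in the clusters, 15 alpha, 16 beta and 22 gamma. In its order the alpha genes run from PCDHA1 to PCDHAC2, the beta genes from PCDHB1 to PCDHB15 and the gamma genes from PCDHGA1 to PCDHGC5. TAF7, which encodes a subunit of the general transcription factor TFIID, and SLC25A2, which encodes a mitochondrial ornithine carrier, are the protein-coding genes between the beta and gamma clusters.

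The lists come from CUT&Tag, in which an antibody directs a transposase to cut and tag nearby DNA, on 500000 K562 cells per experiment. K562 is an established human chronic myeloid leukaemia line. H3K27me3 was profiled with CST9733 at 1/100 in 5 untreated libraries, namely SDS extraction at 15, 11 and 13 PCR cycles and column extraction at 11 and 13 cycles. H3K27ac was profiled in 25 libraries. Abcam-ab177178, Abcam-ab4729 and Active Motif 39133 were used at 1/100, and Diagenode C15410196 at 1/50 and, with SDS at 15 cycles only, 1/100. All 4 H3K27ac antibodies were used in untreated cells with SDS at 15, 11 and 13 cycles and with columns at 11 and 13 cycles. The histone deacetylase inhibitor trichostatin A (TSA) was combined with SDS at 15 cycles for ab177178, ab4729 and Diagenode at both dilutions.

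Each condition had 1 library, and libraries of a mark differ in protocol, so SDs below are spreads between conditions and not between replicates. Per the labels, reads of the 20 libraries with 11 or 13 cycles were brought to a common depth before peak calling, which is not stated for the 10 with 15 cycles. The read depths themselves are unknown. H3K27me3 lists held 65283 to 106997 SEACR peaks and H3K27ac lists 3024 to 22808. The label of the cell line was not checked against marker genes, because no gene table on hg19 was in hand. Copy number was not corrected.

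Promoter sequences are shown because the lists separate the clusters and the interval between them. RefSeq (GRCh38.p14) promoters were in hand for 47 of the 53 genes, and the 250 bases before the annotated start were searched. The conserved element of protocadherin promoters has the core CGCT. That core, on either strand, was in 45 of 47 protocadherin promoters (95.7%) and in 64.8% of the 35116 promoters in the table. It was in 12 of 13 alpha, 13 of 14 beta and 20 of 20 gamma promoters. Here and below, protocadherins were counted per gene, by a match in any promoter listed for it, and all promoters were counted singly. The 8-base words held by the most protocadherin promoters, 12 each, were AGCGCCAC, CAGCGCCA and GCGCCACC on either strand, which overlap one another. AGCGCCAC was in 12 of 14 beta promoters, no alpha or gamma promoter and 0.94% of all promoters. GCGCCACC was in 12 of 14 beta promoters, no alpha or gamma promoter and 1.84% of all. CAGCGCCA was in 11 of 14 beta promoters, 1 of 20 gamma promoters, no alpha promoter and 1.45% of all. The words were picked by their frequency in these same promoters, so their contrast with all promoters is partly set by that choice. The first and last gene of each cluster with a sequence follow, with TAF7, which was added after the values were seen. Each line gives 250 bases from 5′ to 3′, and the capitals mark CGCT or its reverse complement AGCG. They mark matches to this short word and not copies of the whole element, which was not searched for.
PCDHA1: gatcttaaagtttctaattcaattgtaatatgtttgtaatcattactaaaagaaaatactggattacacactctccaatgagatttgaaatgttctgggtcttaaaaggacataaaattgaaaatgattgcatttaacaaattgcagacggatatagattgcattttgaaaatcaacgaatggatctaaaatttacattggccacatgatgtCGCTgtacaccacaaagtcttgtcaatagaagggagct
PCDHAC2: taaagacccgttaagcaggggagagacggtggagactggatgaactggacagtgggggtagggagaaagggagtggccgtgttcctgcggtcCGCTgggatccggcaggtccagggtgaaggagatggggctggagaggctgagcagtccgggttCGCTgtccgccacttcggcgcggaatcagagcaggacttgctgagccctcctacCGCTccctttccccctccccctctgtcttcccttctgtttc
PCDHB1: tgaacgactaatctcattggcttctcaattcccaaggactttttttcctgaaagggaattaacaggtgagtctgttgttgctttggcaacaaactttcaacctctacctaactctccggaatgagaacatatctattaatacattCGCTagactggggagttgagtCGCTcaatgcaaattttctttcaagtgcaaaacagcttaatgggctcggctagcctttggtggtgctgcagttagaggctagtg
PCDHB15: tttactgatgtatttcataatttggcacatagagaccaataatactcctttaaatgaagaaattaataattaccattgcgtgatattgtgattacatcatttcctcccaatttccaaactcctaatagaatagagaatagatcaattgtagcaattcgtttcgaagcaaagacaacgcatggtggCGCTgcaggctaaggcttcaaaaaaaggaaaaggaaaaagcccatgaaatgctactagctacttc
PCDHGA1: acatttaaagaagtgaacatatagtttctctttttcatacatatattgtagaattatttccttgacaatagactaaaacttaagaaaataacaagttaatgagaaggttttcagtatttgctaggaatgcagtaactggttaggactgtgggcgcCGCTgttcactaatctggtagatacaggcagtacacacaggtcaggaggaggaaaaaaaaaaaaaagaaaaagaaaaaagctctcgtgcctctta
PCDHGC4: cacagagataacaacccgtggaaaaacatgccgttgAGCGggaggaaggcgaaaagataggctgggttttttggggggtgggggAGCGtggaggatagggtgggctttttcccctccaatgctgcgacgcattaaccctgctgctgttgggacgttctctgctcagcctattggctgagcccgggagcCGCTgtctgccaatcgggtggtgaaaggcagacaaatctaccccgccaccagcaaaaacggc
TAF7: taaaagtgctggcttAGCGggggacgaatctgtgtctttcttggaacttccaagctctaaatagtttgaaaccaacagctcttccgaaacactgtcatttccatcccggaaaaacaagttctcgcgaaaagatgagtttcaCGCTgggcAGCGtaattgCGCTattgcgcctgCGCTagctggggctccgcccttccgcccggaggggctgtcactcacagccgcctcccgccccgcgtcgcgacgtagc
GC content was 31.6% for PCDHA1, 42.8% for PCDHB1, 35.2% for PCDHB15 and 34.4% for PCDHGA1. It was higher for the C-type genes shown, 62.4% for PCDHAC2 and 57.6% for PCDHGC4, and 56% for TAF7. GC content was taken only for the promoters printed above. These C-type promoters held 3 matches to CGCT each, PCDHB1 held 2, TAF7 held 5, and the others 1 each. A match does not show that a promoter has the conserved element, since 64.8% of all promoters had CGCT.

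**Figure D1:**
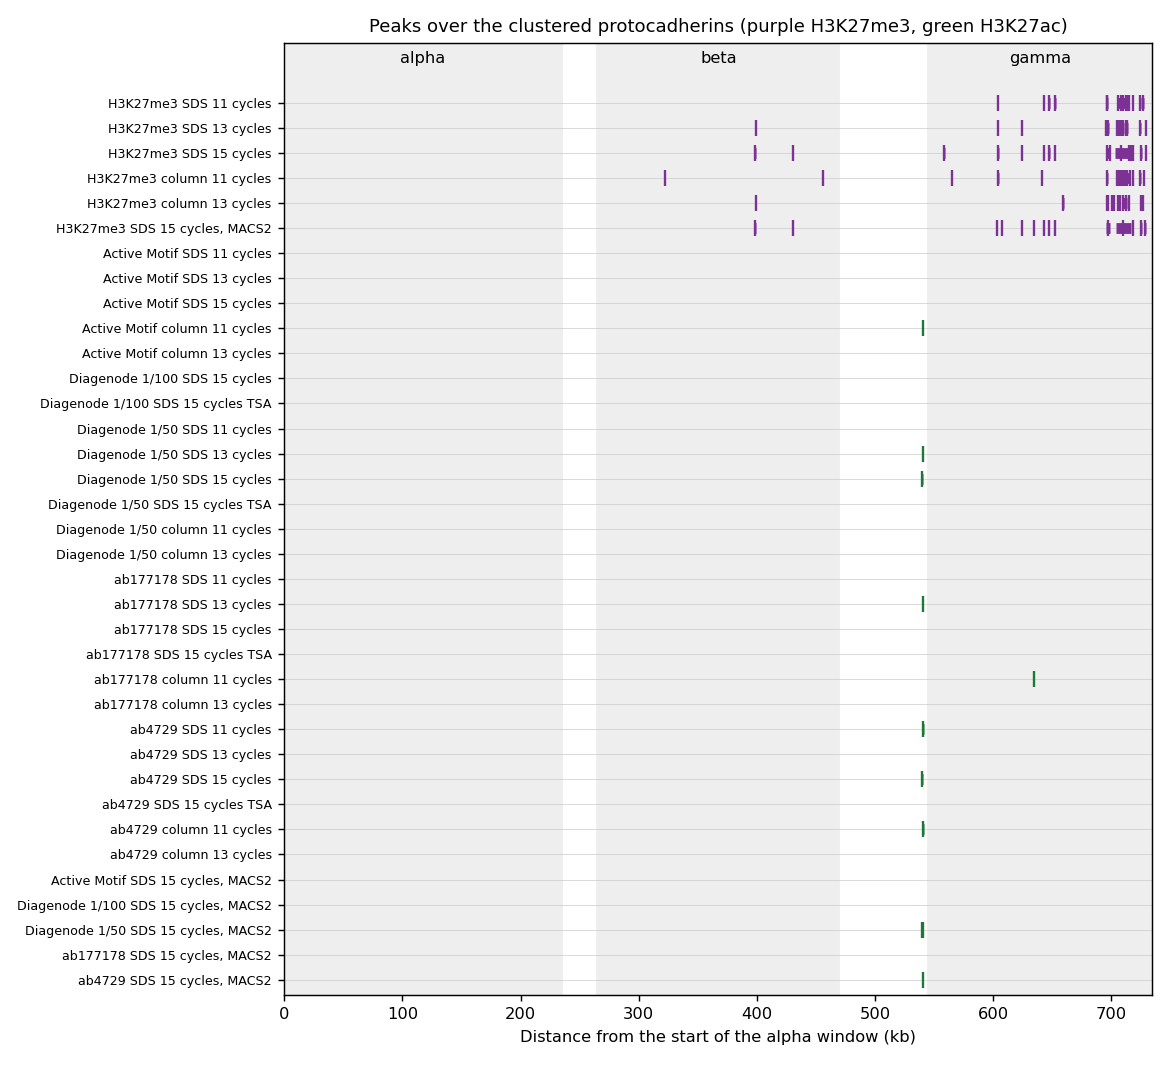
Peaks of the 36 lists across the locus, by distance from the start of the alpha window in kb, with 1 row per list. Purple ticks are H3K27me3 peaks and green ticks H3K27ac peaks, each at least as wide as the tick, so narrow peaks are drawn wider than scale; grey bands are the alpha, beta and gamma windows. The alpha band is empty in every row, and purple ticks gather at the end of the gamma band.

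The alpha cluster had no peak in any list. H3K27me3 peaks numbered 0 in 5 of 5 lists and H3K27ac peaks 0 in 25 of 25, and MACS2 called none in its 6 lists. The window lay inside a stretch of 375.8 kb without a peak in any list, chr5:140106146-140481985, which also held the interval between alpha and beta and the start of the beta window. The stretch was bounded by a peak of the untreated ab4729 list at 15 cycles on the left and a 413 bp H3K27me3 peak of the column list at 11 cycles on the right. Empty windows of this size were common: of 12901 tiles of the genome as wide as the alpha window, 27.4% had no peak in any of the 36 lists. The share was 11.5% when tiles touching a peak-free span of 1 Mb or more, which include assembly gaps, were left out. Of all spans between neighbouring peaks of the pooled lists, 0.568% were as long as this stretch. A list without a peak shows that no signal passed the caller's threshold there, and does not show that the mark was absent.

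The beta cluster held 6 H3K27me3 peaks over the 5 SEACR lists and no H3K27ac peak. The SDS list at 15 cycles had 2 of them, the column list at 11 cycles 2, the SDS and column lists at 13 cycles 1 each, and the SDS list at 11 cycles none. They were 413 to 1129 bp wide and covered 0.804% of the window in the SDS list at 15 cycles, 0.476% in the column list at 11 cycles, 0.255% and 0.227% in the SDS and column lists at 13 cycles, and 0% in the SDS list at 11 cycles. These coverages were below the genome-wide coverage of the same lists, 4.91%, 1.88%, 2.08%, 1.80% and 1.53% in that order. A mean coverage as high as that of the beta window or higher was found in 41.1% of tiles of its width. The share was 52.3% when tiles touching peak-free spans of 1 Mb or more were left out.

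The 6 beta peaks formed 4 regions, of which 1 was found in more than 1 list. That region, chr5:140557897-140559463, was in 3 of 5 H3K27me3 lists at a mean rank percentile of 37.1 by total signal within the list. The other beta regions were chr5:140481986-140482398 and chr5:140615555-140616116 in the column list at 11 cycles and chr5:140590380-140590898 in the SDS list at 15 cycles. MACS2 called 2 beta peaks in the library at 15 cycles, 1601 and 224 bp wide, each overlapping a SEACR peak of that library. No H3K27ac peak in any of 25 lists was also the state of 45.1% of tiles as wide as the beta window. Away from peak-free spans of 1 Mb or more, it was the state of 32.1% of such tiles.

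The gamma cluster held 67 of the 73 H3K27me3 peaks of the locus, 91.8%. It had 14 peaks in the SDS list at 15 cycles, 15 and 14 in the SDS and column lists at 11 cycles, and 12 in each list at 13 cycles. H3K27me3 covered 13.2% of the window in the SDS list at 15 cycles, 7.25% in the SDS list at 11 cycles, 7.26% in the column list at 11 cycles, 5.93% in the SDS list at 13 cycles and 6.62% in the column list at 13 cycles. The list at 15 cycles thus stood above the others, which lay close together.

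Relative to the genome-wide coverage of its own list, the gamma window was 2.69 times as covered in the SDS list at 15 cycles, 4.75 and 3.855 times in the SDS and column lists at 11 cycles, and 2.85 and 3.69 times in those at 13 cycles. The same ratio for the whole locus averaged 0.959 ± 0.205 (SD, n = 5), with values of 0.741 to 1.23. Of 15963 tiles as wide as the gamma window, 9.8% had a mean H3K27me3 coverage as high or higher, and 12.6% when tiles touching peak-free spans of 1 Mb or more were left out. For the whole locus, 30.3% of tiles of its width did, and 40.6% of those away from such spans.

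**Figure D2:**
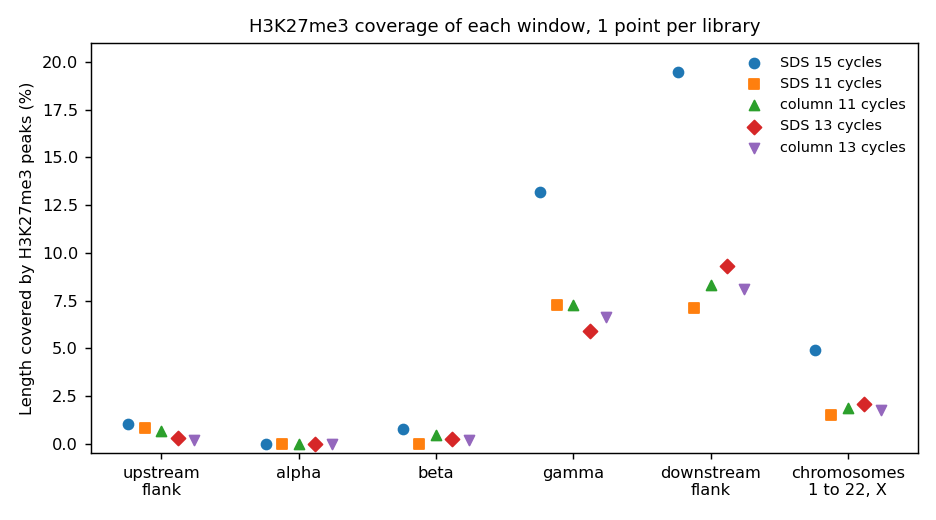
Percent of each window covered by H3K27me3 SEACR peaks (vertical axis), with 1 point per library; flanks are 735 kb on each side, and the last column is the coverage of chromosomes 1 to 22 and X. Gamma lies between 5.93% and 13.2%, beta between 0% and 0.804%, and alpha at 0% in all 5 libraries.

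Coverage differed in the same direction between gamma and the other clusters in all 5 libraries. Gamma exceeded alpha by 8.06 percentage points ± 2.93 (SD, n = 5 libraries; exact sign-flip permutation p = 0.063, adjusted 0.115 over 11 tests). It exceeded beta by 7.70 points ± 2.69 (SD, n = 5; exact permutation p = 0.063, adjusted 0.115). Beta exceeded alpha by 0.352 points ± 0.304 (SD, n = 5; exact permutation p = 0.125, adjusted 0.196), with 4 libraries higher and 1 equal. Alpha was at 0% in all 5 libraries, so neither difference from alpha could be negative, although a sign-flip test takes both signs as possible. The smallest p that 5 libraries allow is 0.063, so none of these tests could pass 0.05. Tests here were two-sided and adjusted by the Benjamini-Hochberg method.

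Most gamma peaks lay at the end of the window. When gamma H3K27me3 peaks within 10 kb of one another were joined over the 5 lists, a grouping chosen after the positions were seen, 5 groups resulted. The last group, chr5:140855398-140889813, was 34.4 kb long and ended 5.19 kb before the end of the window. It held 51 of the 67 gamma peaks (76.1%), with 8 to 11 in each list. In the gene order of the table the last protein-coding genes of the gamma cluster are PCDHGC3, PCDHGC4 and PCDHGC5, the C-type genes.

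H3K27me3 covered 57.6% of this 34.4 kb group in the SDS list at 15 cycles, 31.9% and 34.4% in the SDS and column lists at 11 cycles, and 29.6% and 34.7% in those at 13 cycles. It accounted for 78.9% to 95.0% of the covered length of the gamma window and 86.4% to 96.3% of its peak signal. The remainder of the gamma window before it was 0.415% to 3.52% covered.

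The group contained the 3 gamma regions that were found in all 5 lists. The widest was chr5:140863555-140876367, at a mean rank percentile of 98.1. The others were chr5:140884231-140885883 at 78.2 and chr5:140855398-140857979 at 77.6. Of the 24 merged H3K27me3 regions in the locus, 3 were in all 5 lists (12.5%) and 12 in more than 1 list (50%). Genome-wide these shares were 10.3% and 46.6%, so the reproducibility of regions in the locus was near that of the lists as a whole.

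The strongest peak of the group was high in every list. By total signal it ranked 634 of 106997 peaks in the SDS list at 15 cycles, 435 of 65283 and 1674 of 73663 in the SDS and column lists at 11 cycles, and 2470 of 77659 and 1815 of 69236 in those at 13 cycles. In each list this was also the widest peak of the locus, and total signal grows with width. These peaks, in the same order, were chr5:140863555-140873911 (10357 bp), chr5:140864913-140867379 (2467 bp), chr5:140872672-140875009 (2338 bp), chr5:140869358-140871047 (1690 bp) and chr5:140871780-140873812 (2033 bp). The peak of the list at 15 cycles overlapped each of the others. Among those, the peaks of the column lists overlapped, and the rest lay at separate positions within the widest region.

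**Figure D3:**
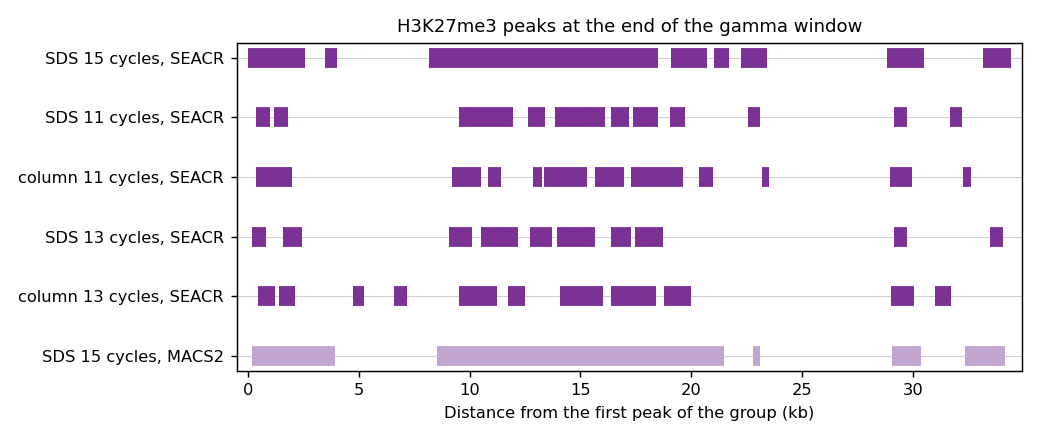
H3K27me3 peaks at the end of the gamma window, by distance from the first peak of the group in kb, with 1 row per list; dark bars are SEACR peaks and light bars MACS2 peaks, to scale. The list at 15 cycles shows a bar of 10357 bp where the other SEACR lists show 4 to 6 shorter bars.

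The same stretch was divided differently between lists. The 10357 bp peak of the SDS list at 15 cycles was broken up in the others. The SDS list at 11 cycles had 5 peaks over it, 732 to 2467 bp wide and together covering 71.3% of it. The column list at 11 cycles had 6 peaks covering 65.4%, the SDS list at 13 cycles 6 covering 70.7% and the column list at 13 cycles 4 covering 62.1%. MACS2 called 12951 bp of the library at 15 cycles as 1 peak over this stretch. The lists with shorter peaks are those of downsampled libraries, and the part of depth in this division was not tested.

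Bases found in all 5 lists made up 4880 bp of the 23473 bp covered in any list of this group, 20.8%. Outside the group no gamma base was in all 5 lists. The most frequent region there, chr5:140763744-140764741, was in 4 of 5 lists, all but the column list at 13 cycles, at a mean rank percentile of 55.4. A group from chr5:140801092 to 140819933 held 8 peaks over 4 lists, and the 2 remaining groups held 2 peaks each.

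Spacing of SEACR peaks was compared with that of the whole list. The group was formed by joining peaks at short distances, so a smaller spacing inside it than before it is partly set by that choice. Median spacing between peak midpoints in the group was 4.12 kb in the SDS list at 15 cycles, 2.11 and 2.18 kb in the SDS and column lists at 11 cycles, and 1.87 and 2.16 kb in those at 13 cycles. Over each whole list the median spacing was 3.27, 3.76, 3.275, 2.93 and 3.17 kb in the same order. Before the group, gamma peaks had a median spacing of 18.6 kb in the list at 15 cycles, 5.16 and 38.0 kb in the SDS and column lists at 11 cycles and 19.9 kb in the SDS list at 13 cycles, and the column list at 13 cycles had 1 peak there. Spacing in the group was thus smaller than that of the list in the 4 lists at 11 and 13 cycles and larger in the list at 15 cycles. By MACS2 the library at 15 cycles had a median spacing of 7.35 kb in the group, 6.40 kb before it and 4.94 kb over the list.

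By SEACR, H3K27me3 peaks in the locus had a larger median width than those in the rest of the list in all 5 libraries, a difference that did not pass its test and depended on how peaks were divided. Median widths in the locus were 1043 bp in the SDS list at 15 cycles, 724 and 680.5 bp in the SDS and column lists at 11 cycles, and 873 and 755 bp in those at 13 cycles. The medians of the whole lists were 958, 595, 611, 649 and 638 bp. The log2 ratio of locus to the rest was 0.25 ± 0.12 (SD, n = 5 libraries; exact sign-flip permutation p = 0.063, adjusted 0.115). With peaks within 1 kb merged it was 0.11 (exact permutation p = 0.688, adjusted 0.840). By MACS2 the library at 15 cycles went the other way, with a median of 633.5 bp in the locus and 837 bp in the list.

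The sides of the locus differed for H3K27me3. The 735 kb upstream held 3 to 10 peaks per list and was 0.614% ± 0.359 covered (SD, n = 5), fewer peaks than the locus in 5 of 5 lists. The 735 kb downstream held 72 to 85 peaks and was 10.5% ± 5.10 covered, more than the locus in 5 of 5 lists. The end group of the gamma window was not continuous with the downstream peaks, since the next H3K27me3 peak lay 160.5 to 187.2 kb away in the 5 SEACR lists and 178.9 kb away by MACS2.

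H3K27ac was found at 1 recurrent position, in the interval between the beta and gamma clusters. The region chr5:140699189-140701254 was called in 7 of 25 SEACR lists and ended 3.75 kb before the gamma window and began 69.2 kb after the beta window. Genome-wide, 24.3% of merged H3K27ac regions were in 7 or more lists, so this recurrence was not rare. All 7 peaks shared chr5:140700154-140701066, 913 bp.

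The peak was 1933 bp wide in the untreated ab4729 and Diagenode 1/50 lists at 15 cycles, 1444 and 1389 bp in the SDS and column lists of ab4729 at 11 cycles and 952 bp in the column list of Active Motif at 11 cycles. It was 1069 bp in the SDS list of ab177178 and 913 bp in that of Diagenode 1/50, both at 13 cycles. Its rank percentile within these lists was 16.7 to 42.3, below the median of each by total signal. MACS2 called it in the ab4729 library, 1189 bp wide with a −log10 q of 21.5, and in the Diagenode 1/50 library as peaks of 411 and 329 bp, and not in the other 3 H3K27ac libraries at 15 cycles. Ranked by q in these MACS2 lists, it stood at percentile 61.1 for ab4729 and at 56.7 and 39.5 for the peaks of Diagenode 1/50.

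The SEACR peaks of ab4729 and Diagenode 1/50 at 15 cycles had identical bounds. These lists had 148 peaks with identical bounds over the genome, against at most 18 in any other of the 300 pairs of H3K27ac lists and a median of 2. Counted without these lists, the region was in 5 of 23. List sizes with and without it overlapped: lists with it held 5780 to 13394 peaks (median 7191) and lists without it 3024 to 22808 (median 6285), among them the untreated ab177178 list at 15 cycles with 16623. None of the 87 H3K27me3 peaks of the locus overlapped the region, and the nearest was 16.8 kb away.

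By antibody, the region was in 3 of 5 untreated lists of ab4729, 2 of 6 of Diagenode, 1 of 5 of ab177178 and 1 of 5 of Active Motif. Among downsampled lists it was in 3 of 8 from SDS and 2 of 8 from column extraction, and in 3 of 8 at 11 cycles and 2 of 8 at 13 cycles.

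The only H3K27ac peak inside a cluster was chr5:140794474-140794996, 523 bp wide, in the gamma window of the ab177178 column list at 11 cycles. It was in 1 of 25 lists, at a rank percentile of 22.4, and 47.4% of merged H3K27ac regions were likewise in 1 list. No SEACR H3K27me3 peak overlapped it. The MACS2 H3K27me3 list of the library at 15 cycles had a peak of 531 bp that overlapped it by 517 bp, at a −log10 q of 2.36. An H3K27ac peak in at most 1 of 25 lists was found in 55.6% of tiles as wide as the gamma window. Away from peak-free spans of 1 Mb or more, it was found in 44.5% of such tiles.

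Every H3K27ac list had fewer peaks in the locus than in either flank of equal length. The locus held 0 peaks in 17 lists and 1 in 8. The upstream flank held 3 to 26 peaks with a median of 10, and the downstream flank 2 to 18 with a median of 6. Coverage relative to the genome averaged 0.13 ± 0.218 for the locus, 5.39 ± 1.34 upstream and 3.22 ± 0.992 downstream (SD, n = 25). At most 1 peak in every H3K27ac list was found in 34.7% of 4119 tiles as wide as the locus, and in 18.7% of those away from peak-free spans.

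**Figure D4:**
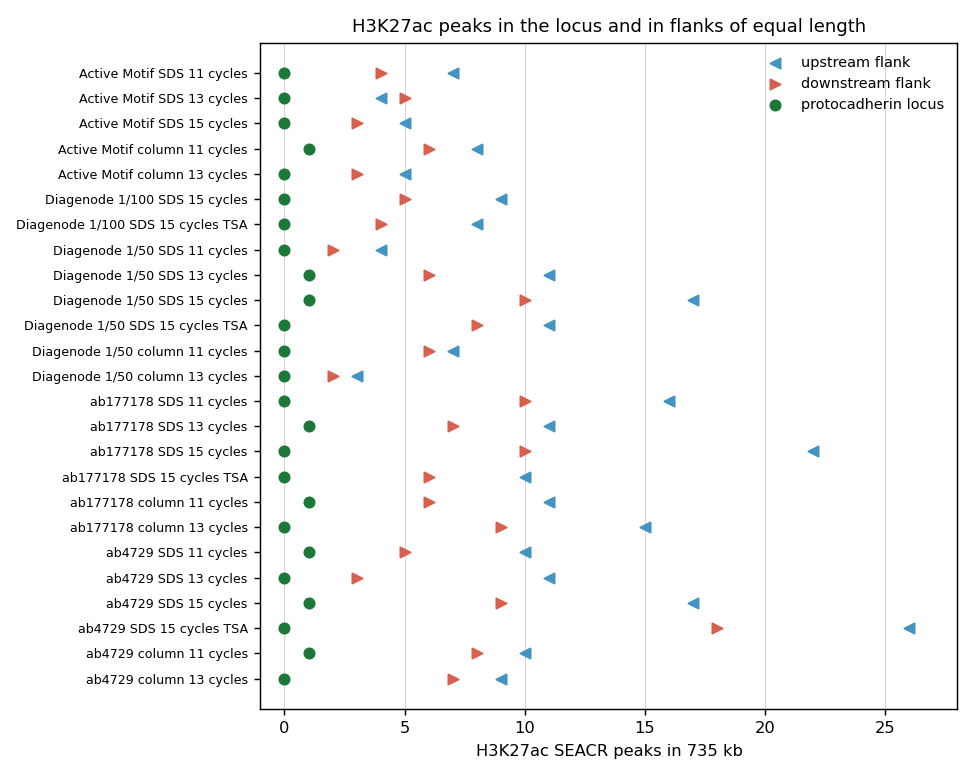
Number of H3K27ac SEACR peaks in the protocadherin locus (circles) and in the 735 kb upstream and downstream (triangles), with 1 row per library. The locus holds 0 or 1 peak in every library and lies below both flanks in all 25.

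The marks were compared by the share of each list's covered length that fell in a window. That share does not remove the effect of list size, since each H3K27ac list had 0 or 1 peak in the locus. The region between beta and gamma alone made 0.00447% of the length in the untreated ab4729 list at 15 cycles, which covered 43.3 Mb. In the SDS list of ab4729 at 11 cycles, which covered 7.84 Mb, it made 0.0184%. The part of list size in the contrast of marks was not tested. The locus took 0.0232% ± 0.00497 of H3K27me3 length (SD, n = 5) and 0.00315% ± 0.00527 of H3K27ac length (SD, n = 25; exact permutation p = 2.8e-05, adjusted 0.000154). The H3K27me3 values, 0.0179% to 0.0297%, and the H3K27ac values, 0% to 0.0184%, overlapped by 1 H3K27ac list, that of ab4729 from SDS at 11 cycles. An evenly spread mark would put 0.0242% of its length in a locus of this size. The mean share was higher for H3K27me3 in 38.1% of tiles as wide as the locus.

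In the gamma window the share was 0.0223% ± 0.00522 for H3K27me3 and 0.000241% ± 0.00121 for H3K27ac (SD, n = 5 and 25; exact permutation p = 1.4e-05, adjusted 0.000154), and the groups did not overlap. This was so in 14.4% of tiles as wide as the gamma window. For beta it was 0.000898% ± 0.000614 and 0% (exact permutation p = 0.000365, adjusted 0.00134), where 1 H3K27me3 list was also at 0, and the difference rests on the 6 peaks named above. The mean share was higher for H3K27me3 in 36.3% of tiles as wide as the beta window. With only the peaks above the median total signal of their list, the beta difference fell to 0.000207 percentage points (exact permutation p = 0.333, adjusted 0.611). Alpha was at 0% in all 30 lists. H3K27me3 was profiled with 1 antibody, so mark and antibody cannot be told apart.

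TSA lists had no peak in the locus in 4 of 4 cases, and 17 of all 25 H3K27ac lists, these 4 included, had none. The untreated partners had 1 peak with ab4729 and 1 with Diagenode at 1/50, both in the interval between beta and gamma, and none with ab177178 or with Diagenode at 1/100. The TSA list of ab4729 had the most peaks of the 25 SEACR H3K27ac lists, 22808, although it covered 25.3 Mb against 43.3 Mb in its untreated partner, and the TSA list of Diagenode at 1/50 held 6301 against 11844. The share of covered length in the locus was 0% with TSA and 0.00263% without, a difference of -0.00263 ± 0.00311 percentage points (SD, n = 4 pairs; exact sign-flip permutation p = 0.5, adjusted 0.611). With 4 pairs p cannot go below 0.125. The depth of these lists is unknown, so treatment and depth cannot be told apart.

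Extraction and cycle number gave no common direction for H3K27ac in the locus. Column lists had the larger share in 2 of 8 pairs, SDS lists in 3, and 3 were at 0 in both, with a mean difference of -0.00112 ± 0.00748 percentage points (SD, n = 8; exact permutation p = 0.812, adjusted 0.894). Lists at 13 cycles had the larger share in 2 of 8 pairs, those at 11 cycles in 4, and 2 were at 0 in both, with a mean difference of -0.00349 ± 0.0104 points (SD, n = 8; exact permutation p = 0.375, adjusted 0.516). With 0 or 1 peak per list, these shares turn on the presence of a peak.

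For H3K27me3 the protocol pairs number 2 per contrast, too few for a test. Gamma coverage was 7.26% from columns and 7.25% from SDS at 11 cycles, and 6.62% and 5.93% at 13 cycles. The end group held 11 peaks in both lists at 11 cycles and 11 and 10 at 13 cycles, column first. Peaks of the gamma window before the end group were 3 and 4 at 11 cycles and 1 and 2 at 13 cycles, again column first.

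The callers gave similar counts and coverage per cluster for the H3K27me3 library at 15 cycles, but differed in the width and spacing of peaks given above. SEACR called 16 peaks in the locus and MACS2 14, with 0 in alpha and 2 in beta by both, and 14 and 12 in gamma. They covered 13.2% and 12.5% of the gamma window and 0.804% and 0.890% of the beta window. Before the end group, some gamma peaks differed in position. The MACS2 peaks at chr5:140762771-140763247, chr5:140767184-140767470 and chr5:140794480-140795010 overlapped no SEACR peak of that library. Its SEACR peaks at chr5:140718033-140719197 and chr5:140763818-140764691 overlapped no MACS2 peak. MACS2 gave 5 peaks in the end group against 8, with the highest −log10 q, 5.13, at chr5:140884438-140885739 rather than in the widest peak.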

How the data were processed

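CUT&Tag peak lists of 30 K562 libraries on hg19 were used as the authors deposited them, called per library with duplicates removed, per the labels. The submitters' processing notes name the peak callers MACS2 and SEACR, and also Bowtie2 2.2.9, bedtools 2.25.0, Trim Galore 0.6.6, SAMtools 1.3.1, bcl2fastq and Picard 2.6.0, with no role or order. For SEACR, mode and threshold were not given in the sources used here. Deposited SEACR lists give a total and a maximum signal per peak. Total signal was used to rank peaks within a list and, summed, for the share of gamma peak signal in the end group. MACS2 lists deposited by the authors give a score, a fold enrichment ratio and −log10 p and q values. Only the last was printed. Their peak names carry a q of 1e-05 and "no_lambda". The −log10 q given for H3K27me3 peaks of the locus was 1.76 to 5.13, so these values do not all reach that q. How it was applied is not known.

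Peaks on chromosomes 1 to 22 and X overlapping a window by at least 1 bp were counted, and covered length was clipped at its bounds. Genome tiles had the width of the window. Chromosome ends were taken as the last peak of any list, 3035 Mb in all. Tests were exact permutations over libraries or matched pairs, adjusted over 11 tests. Libraries are single conditions, and nothing says they were separate cultures, so p-values measure only the spread between them. The rule took, per cluster, the 3 H3K27me3 regions in most lists and, in the locus, up to 6 H3K27ac regions in most lists, ties by mean rank percentile, with the widest H3K27me3 peak of each list, and named the first and last gene of each cluster for promoters. The other named regions were chosen after their values were seen. Members and lists were chosen with earlier results of these data known. Alternatives covered peak strength, sequences, merging within 1 kb, libraries, antibodies, the measure and the caller. Code was tested on simulated data, in Python 3.11.15 with scipy 1.17.1, pandas 2.3.3, matplotlib 3.10.9 and numpy 2.4.6.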

Additional observations from a re-analysis of the deposited data

Results flagged for a closer look

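The H3K27me3 list from SDS extraction at 15 cycles lay far from the other 4 H3K27me3 lists in coverage and in the width of its widest peak. It covered 3.64% of the locus, against 1.60% to 2.01% in the others, and 13.21% of the gamma window, against 5.93% to 7.26%. Its widest peak, in the gamma window and so the widest of the locus too, was 10357 bp, against 1690 to 2467 bp. Its gap to the nearest list was 0.801, 0.817 and 0.910 of the range in these measures, above the 95% critical value of Dixon's test for 5 values. Chance flags about 1 in 20 groups, and 16 such measures, which are not independent, were examined. The list stood apart over the genome too, covering 4.91% of chromosomes 1 to 22 and X against 1.53% to 2.08%. As a share of its own covered length, the locus was lowest in this list, at 0.0179% against 0.0186% to 0.0297%. Among the 5 lists it alone was not described as downsampled, and the part of depth in these values was not tested.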

How the results depend on the processing

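The H3K27me3 excess over H3K27ac in locus and gamma kept its direction and an adjusted p below 0.05 in all 15 tested settings. It was 0.0150 to 0.0262 percentage points in the locus and 0.0171 to 0.0260 in gamma. The lowest values are shares of peak number, a different measure. The highest are those of peaks above the median total signal of each list. No H3K27ac peak of the locus ranked above that median, so none was left in that setting. Under the other tested settings the excess was 0.01844 to 0.02139 points in the locus and 0.02022 to 0.02345 in gamma. The beta excess over H3K27ac kept its direction and an adjusted p below 0.05 (exact permutation) in 14 of 15. No H3K27ac list had a beta peak, so the beta direction could not reverse in any setting. In gamma 1 of 25 H3K27ac lists had a peak, so the direction there was nearly fixed too. Relative to the genome-wide coverage of the same lists, H3K27me3 averaged 0.959 in the locus, 0.133 in beta and 3.565 in gamma (n = 5). Without each H3K27me3 list in turn, 72.7% to 81.1% of the remaining gamma peaks lay in the end group. Its bounds were kept as drawn from all 5 lists, so these shares do not test the grouping. By MACS2, with no test, the excess was 0.0146 points for the locus and 0.0153 for gamma, and differences in covered percent were 12.5 points for gamma against alpha, 11.6 for gamma against beta and 0.890 for beta against alpha. With peaks above the median total signal of each list the beta excess was 0.000207 points (exact permutation, adjusted p = 0.611), and the cause was not tested. For H3K27ac, the difference of 13 and 11 cycles turned to 0.000483 points without ab4729, and that of column and SDS to 0.000324 without Diagenode, neither past the threshold in any setting. Alpha was 0 throughout. The mean log2 width ratio stayed above 0 under the 7 settings run, at 0.11 with peaks within 1 kb merged (exact permutation p = 0.688) and 0.20 to 0.28 otherwise, but MACS2 medians had the opposite direction. A list without a peak cannot tell low depth from a low mark.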
